A study of Mus musculus with 12 samples.

Results

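The genes that surround Tmem173 on mouse chromosome 18 were examined in B lymphocytes from Tmem173-/- and wild type mice. Members were the protein-coding genes whose deposited start lies between base 30000000 and base 41000000 of chromosome 18 (GRCm38), less Tmem173 itself and 7 other genes (Egr1, Mzb1, Hars, Hars2, Kif20a, Ndufa2 and Eif4ebp3). This rule used position and gene type, and no expression value; it gave 160 members of the 54532 genes in the deposited table. B lymphocytes had been sorted from 3 mice of each genotype, and poly-A RNA was sequenced after 12 hours with 3'3'-cGAMP, a bacterial cyclic dinucleotide, or from control cells. The 4 groups were Tmem173-/- cGAMP, Tmem173-/- control, wild type cGAMP and wild type control, with 3 libraries in each. The labels give no sex, age, strain or allele type, and do not say how control wells were handled. They also do not tie libraries to mice, so the p-values below measure the spread between libraries, part of which may be technical. Libraries of both treatments may come from the same mice, so a genotype difference seen in both may not be an independent repeat.

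Tmem173 encodes STING, a receptor of the endoplasmic reticulum that binds cyclic dinucleotides and signals to interferon and inflammatory genes. When a gene is targeted in embryonic stem cells of a given strain and the mice are crossed to another strain, the neighbouring stretch of chromosome tends to be inherited with the targeted allele. Flanking genes in such mice can therefore carry variants of the donor strain, and their expression can differ between genotypes through linkage as well as through loss of the targeted gene. Whether the mice used here carried such a stretch is not stated in the labels and was not tested.

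Libraries held between 26490593 and 31417833 assigned counts, and 18556 to 19727 genes had at least 1 count in each. Expression levels are given as CPM (counts scaled to the library total after TMM scaling). Tmem173 RNA was at 82.8, 101 and 95.8 CPM in Tmem173-/- cGAMP libraries and 80.2, 94.7 and 103 CPM in Tmem173-/- controls, against 44.6, 49.2 and 48.0 CPM in wild type cGAMP libraries and 91.1, 102 and 92.6 CPM in wild type controls. The level of this transcript thus does not check the genotype label, since gene-level counts do not show which part of the gene was altered. Genes downstream of STING did follow the label under cGAMP. A list of 10 interferon-stimulated genes summed to 125, 98.7 and 95.8 CPM in Tmem173-/- cGAMP libraries, against 3807, 4450 and 3822 CPM in wild type cGAMP libraries. All 10 were called lower in Tmem173-/- cells there. B cell markers (Cd79a, Cd79b, Ms4a1, Pax5, Cd22 and Blk) summed to 4481 to 5397 CPM in Tmem173-/- libraries, 2552 to 3012 CPM in wild type cGAMP libraries and 4313 to 5144 CPM in wild type controls. With cGAMP in wild type cells, 5 of these markers were lower and 1 was higher. Pax5 was the higher one, with 16946, 17590 and 16956 counts with cGAMP against 12797, 15364 and 12920 counts in wild type controls. Wild type replicate 1 stood apart in both treatments, with T cell markers at 16.9 and 9.18 CPM and neutrophil markers at 23.6 and 9.11 CPM, against at most 4.04 and 1.77 CPM in the other libraries. Wild type control replicate 3 had 456 CPM of 10 interferon-stimulated genes, against 100 and 185 CPM in the other wild type controls. Ly6g, a marker of neutrophils, had no count in any library. In bulk RNA, fewer cells of a type and less RNA per cell cannot be told apart. Counts of members called are also given without both wild type replicate 1 libraries, and wild type control replicate 3 was left out in turn with the other libraries. The share of all tested genes is not given for those fits. A change in such a count can therefore not be read as particular to members.

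Of the 160 members, 75 had enough counts to be tested and 85 did not. Members together took 0.55% to 0.572% of all counts in Tmem173-/- libraries and 0.56% to 0.60% in wild type libraries. The 5 members with the highest length-scaled level (mean FPKM over all libraries) were Hspa9, the mitochondrial Hsp70 chaperone, at 489 FPKM, and Paip2, an inhibitor of poly(A)-binding protein, at 230 FPKM. They were followed by Ndfip1, an adaptor of Nedd4-type ubiquitin ligases, at 177 FPKM, Matr3, an RNA-binding protein of the nuclear matrix, at 172 FPKM, and Etf1, the translation termination factor, at 157 FPKM.

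Without agonist, no tested member differed between Tmem173-/- and wild type cells at an adjusted p of 0.05 (edgeR quasi-likelihood test, Benjamini-Hochberg over 14473 genes). The smallest adjusted p of a member was 0.728, and the share of all tested genes called in this comparison was likewise 0.0%. DESeq2 and limma-voom also called 0 members. At an unadjusted p under 0.05 there were 7 members, or 9.33%, beside 6.36% of all tested genes, 6.95% of tested protein-coding genes and 2.09% (4 of 191) on the rest of chromosome 18. Libraries of the Tmem173-/- and wild type controls did not overlap for 10.7% of the tested members and for 9.09% of all tested genes and 9.03% of protein-coding genes. The median log2 fold change of members was -0.02 and its median size 0.12, beside 0.12 over all protein-coding genes. For 60 of the 75 members the 95% interval from limma-voom lay within a 2-fold difference in either direction, and for 52 within 1.5-fold.

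The 7 members with the lowest unadjusted p in untreated cells, named here after their values were seen, were Map3k2, Sra1, B930094E09Rik, Wdr55, Pcdhb22, Srp19 and Polr2d. Map3k2 encodes a kinase of MAP kinase cascades and starts at -3.571 Mb relative to the start of Tmem173. It was at 78.2, 82.9 and 82.6 CPM in Tmem173-/- controls, against 68.7, 69.0 and 68.2 CPM in wild type controls. The 3 wild type controls were almost equal and all lay below the Tmem173-/- controls, with a log2 fold change of 0.24 ± 0.08 (SE), an unadjusted p of 0.0077 in edgeR and an adjusted p of 0.728. Under cGAMP, Map3k2 was at 76.3, 84.5 and 74.9 CPM in Tmem173-/- cells, against 57.3, 59.6 and 66.6 CPM in wild type cells, and there the difference of 0.36 ± 0.08 passed the test (edgeR adjusted p = 0.00136). The difference between its responses to cGAMP in the 2 genotypes was 0.12 ± 0.11 (edgeR adjusted p = 0.462). Control and cGAMP libraries may share mice, so the Map3k2 differences in both treatments may not be independent.

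Sra1, the steroid receptor RNA activator, was at 84.8, 78.2 and 75.9 CPM in Tmem173-/- controls, against 86.7, 95.0 and 104 CPM in wild type controls (log2 fold change -0.26 ± 0.09, edgeR adjusted p = 0.728). With cGAMP it was at 78.5, 82.3 and 83.1 CPM in Tmem173-/- cells, against 90.1, 105 and 93.4 CPM in wild type cells (-0.24 ± 0.09, edgeR adjusted p = 0.0295). Neither pair of groups overlapped, though both pairs may come from the same mice. The call under cGAMP was lost without any of the 3 Tmem173-/- cGAMP libraries (adjusted p = 0.103, 0.0564 and 0.0579 without replicates 1, 2 and 3) or without wild type cGAMP replicate 2 (0.134). Sra1 shares 152 bases with Slc35a4 on the opposite strand, and reads from that stretch cannot be assigned to either gene without strand. Polr2d, a subunit of RNA polymerase II, had a log2 fold change of -0.27 ± 0.12 in untreated cells, and Srp19, of the signal recognition particle, -0.22 ± 0.10. Wdr55, a nucleolar protein of ribosomal RNA processing, stood at -0.32 ± 0.12. B930094E09Rik and Pcdhb22 had totals of 99 and 202 counts over all 12 libraries, and their differences of -1.77 ± 0.64 and 1.40 ± 0.60 rest on few reads. B930094E09Rik also shares 391 bases with the far more abundant Slc25a46 on the opposite strand.

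Among the 53 members with a mean of at least 5 CPM, Ctnna1 was the one whose libraries of a single group differed most, and it is described here after its values were seen. It encodes alpha-catenin, which links cadherin and beta-catenin at cell junctions to actin (ENSMUSG00000037815, GRCm38 chromosome 18, bases 35118888 to 35254773, plus strand), and starts 614.8 kb below the start of Tmem173, with 9 tested members between. In Tmem173-/- controls Ctnna1 was at 68.4, 10.2 and 11.2 CPM (2094, 303 and 307 counts), against 92.7, 73.2 and 79.0 CPM in wild type controls (2605, 2081 and 2237 counts). In Tmem173-/- cGAMP libraries it was at 68.4, 10.9 and 11.2 CPM (1839, 329 and 329 counts), against 78.4, 48.6 and 64.1 CPM in wild type cGAMP libraries (2154, 1412 and 1800 counts). Replicates 2 and 3 of the Tmem173-/- libraries were low in both treatments, and replicate 1 was near wild type in both. Control and cGAMP libraries may come from the same mice, so this may not be an independent repeat. As a share of the wild type mean in the same treatment, replicates 2 and 3 held 12.5% and 13.7% in controls and 17.2% and 17.5% under cGAMP, and replicate 1 held 83.8% and 107%.

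**Figure D1:**
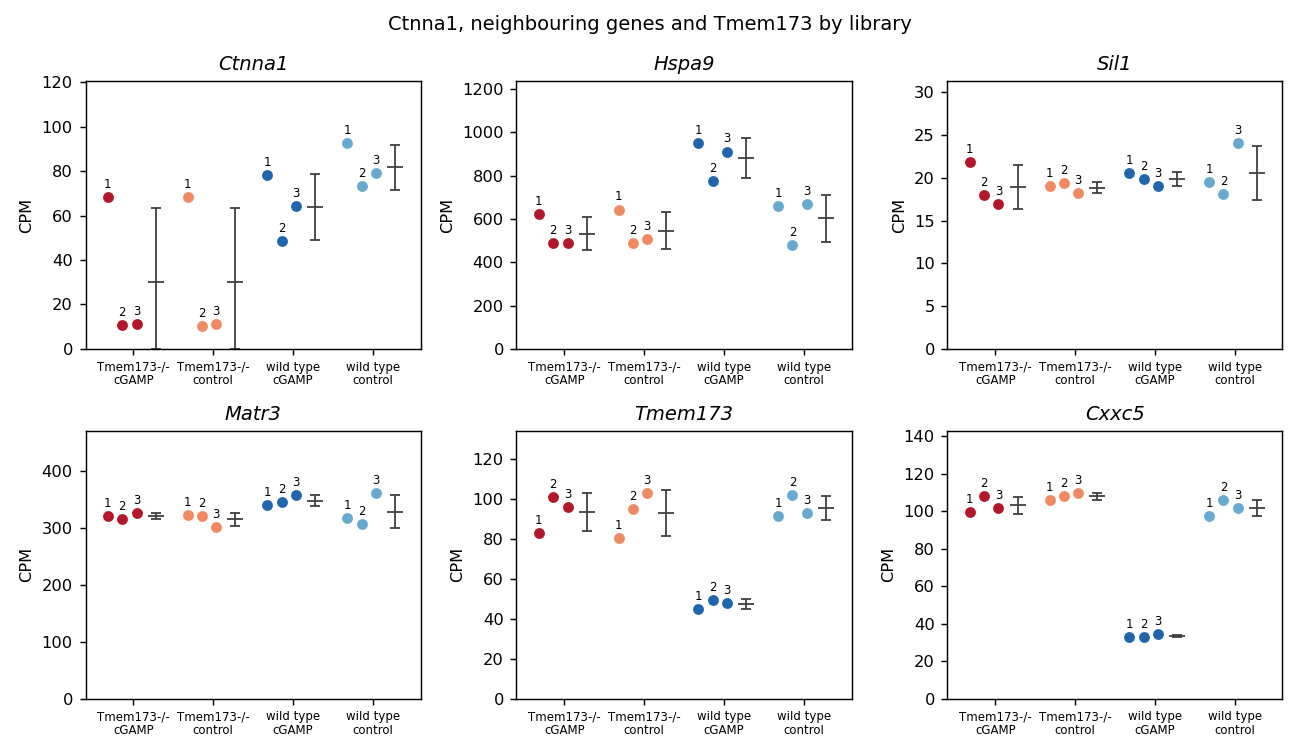
CPM of Ctnna1, of the members Hspa9, Sil1, Matr3 and Cxxc5, and of Tmem173 in each library (points, numbered by replicate). The mean and SD of each group of 3 stand beside them as a bar that is drawn no lower than 0. Tmem173-/- replicates 2 and 3 had 10.2 to 11.2 CPM of Ctnna1, below every other library. No such gap between Tmem173-/- replicates is seen in the other panels. For Cxxc5 and Tmem173 the wild type cGAMP libraries lie below all others.

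From the lowest to the highest library of a group, Ctnna1 varied 6.25-fold in Tmem173-/- cGAMP and 6.73-fold in Tmem173-/- control, against 1.61-fold in wild type cGAMP and 1.27-fold in wild type control. Among the 53 members with a mean of at least 5 CPM, no other reached 2-fold in any group; the next were Spata24 (1.40-fold in Tmem173-/- cGAMP), Pfdn1 (1.48-fold in Tmem173-/- control), Fchsd1 (1.38-fold in wild type cGAMP) and Pkd2l2 (1.94-fold in wild type control). Over all genes at that level, 34 of 9490 (0.358%) varied at least 2-fold in both Tmem173-/- groups, and Ctnna1 was the only gene of these on chromosome 18. In 28 of the 34, replicate 1 was the highest library in both treatments, and 14 of the 34 stayed under 2-fold in both wild type groups. Among those 28, picked after their values were seen, Slc15a2 varied 10.4-fold in Tmem173-/- cGAMP and 6.72-fold in Tmem173-/- control. Jchain varied 3.46- and 2.92-fold in the same groups, and Ighg2c 32.8- and 5.3-fold. Ighg2c also varied 5.83-fold in wild type cGAMP and 12.3-fold in wild type control. Ctnna1 was thus not the only gene in which Tmem173-/- replicate 1 stood apart.

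Genes beside Ctnna1 showed smaller differences. Hspa9, which starts on its lower side, was at 621, 489 and 488 CPM in Tmem173-/- cGAMP libraries and 644, 487 and 506 CPM in Tmem173-/- controls, against 952, 776 and 912 CPM in wild type cGAMP libraries and 659, 478 and 671 CPM in wild type controls. Replicate 1 was the highest Tmem173-/- library there too, at 1.27 times the lowest under cGAMP and 1.32 times the lowest in controls. The wild type libraries of Hspa9 varied about as much, 1.23-fold with cGAMP and 1.4-fold in controls. Sil1, an exchange factor for the chaperone BiP on the other side of Ctnna1, was at 21.9, 18 and 16.9 CPM in Tmem173-/- cGAMP and 19.0, 19.4 and 18.2 CPM in Tmem173-/- control, against 20.6, 19.9 and 19.0 CPM in wild type cGAMP and 19.5, 18.1 and 24.1 CPM in wild type control. Lrrtm2, which lies inside Ctnna1 on the opposite strand, had 43 counts over all libraries, against 17490 for Ctnna1.

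The group comparison of Ctnna1 did not pass the threshold in either treatment in edgeR with the filter on low counts. In untreated cells the edgeR log2 fold change was -1.44 ± 0.91 (adjusted p = 0.743), and the 3 Tmem173-/- controls all lay below the 3 wild type controls (exact two-sided permutation p = 0.1, the smallest that 3 against 3 can give). Under cGAMP it was -1.08 ± 0.91 (edgeR adjusted p = 0.363; exact permutation p = 0.3), and limma-voom, which gave -1.66, called it (adjusted p = 0.0329). Leaving out Tmem173-/- control replicate 1 moved the untreated value to -2.93 (edgeR adjusted p = 0.217), and leaving out replicate 2 or 3 moved it to -1.03 or -1.05. Under cGAMP, the value was -2.52 without Tmem173-/- cGAMP replicate 1 (edgeR adjusted p = 0.0521) and -0.69 or -0.68 without replicate 2 or 3. With no filter on low counts Ctnna1 was called in untreated cells (-1.44, edgeR adjusted p = 6.79e-36) and under cGAMP (-1.07, edgeR adjusted p = 3.30e-21). The responses of Ctnna1 to cGAMP were 0.00 ± 0.91 in Tmem173-/- cells and -0.36 ± 0.88 in wild type cells (edgeR adjusted p = 1.0 and 0.769). All 4 groups share a single estimate of the spread. The wild type SE therefore also holds the spread of the Tmem173-/- libraries. The wild type response was called with no filter on low counts (-0.36, edgeR adjusted p = 0.00366). The Tmem173-/- response moved to -1.44 without Tmem173-/- cGAMP replicate 1 and to 1.49 without Tmem173-/- control replicate 1 (edgeR adjusted p = 1.0 in both). In the same Tmem173-/- replicate 1 libraries, B cell markers summed to 4481 CPM under cGAMP and 4584 CPM in controls, against 4944 to 5397 and 4909 to 5138 CPM in replicates 2 and 3. The 5 endothelial markers (Pecam1, Cdh5, Kdr, Tek and Vwf) summed to 102 and 96.7 CPM in replicate 1, against 128 to 144 CPM in replicates 2 and 3. Nearly all of this sum was Pecam1, with 2729 and 2915 counts in replicate 1 and 3712 to 4302 counts in replicates 2 and 3, while the other 4 had at most 28 counts each in any Tmem173-/- library. The part of cell composition or of differences between mice in the Ctnna1 values was not tested.

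Under cGAMP, 18 tested members were higher and 17 lower in Tmem173-/- than in wild type cells, which is 46.7% of 75. The share of all tested genes called in this comparison was 48.3% (24.9% higher and 23.5% lower), that of protein-coding genes 54.0% and that of genes on the rest of chromosome 18 was 52.4%. The median log2 fold change of members was 0.02, with a median size of 0.36, beside 0.41 over all protein-coding genes. By distance, given as a description, the share called was 48.0% of 25 tested members that start within 1 Mb of Tmem173, 45.7% of 35 between 1 and 3 Mb, and 46.7% of 15 beyond 3 Mb. On the side of lower coordinates 20 of 40 tested members were called, and on the higher side 42.9% of 35. Without both wild type replicate 1 libraries 31 members were called, 18 higher and 13 lower, of which 29 were among the 35.

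**Figure D2:**
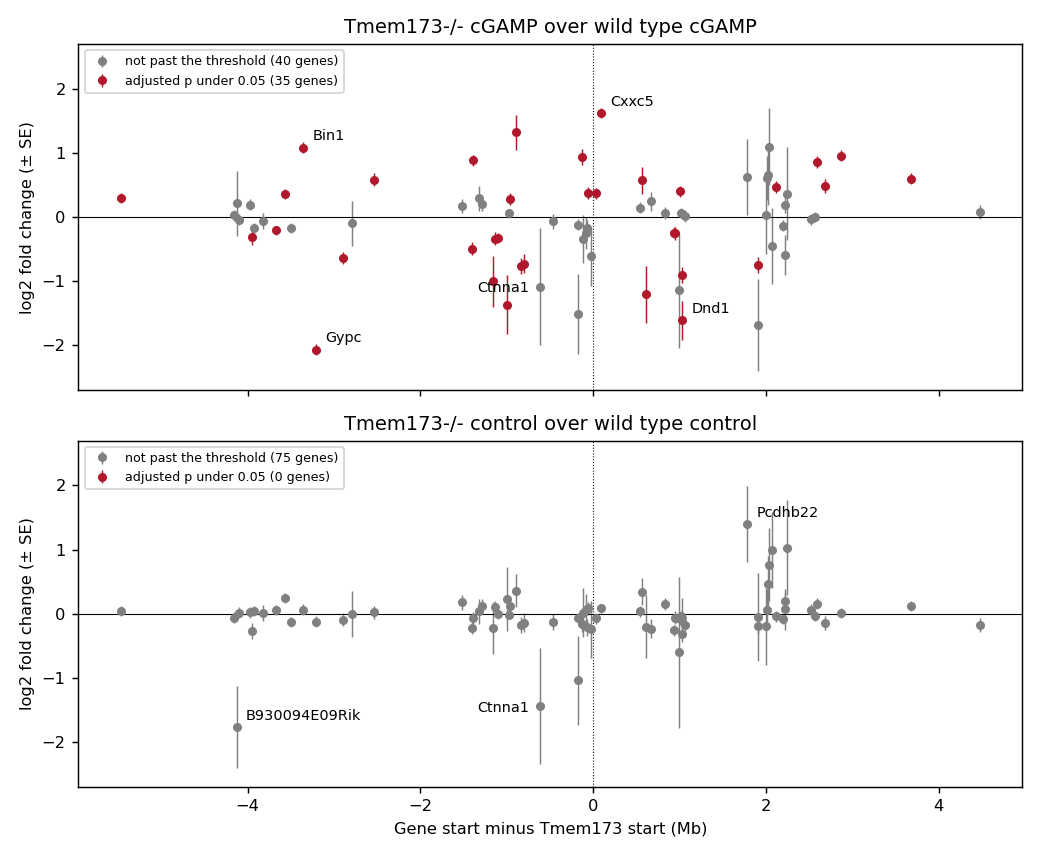
Log2 fold change (± SE) of the 75 tested members by the distance of their start from that of Tmem173 (Mb), in Tmem173-/- over wild type cells with cGAMP (upper panel) and without (lower panel). With cGAMP, 35 members passed an adjusted p of 0.05, on both sides of Tmem173, and without it 0 did.

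Among the members called under cGAMP, those with the largest differences were Gypc, Cxxc5, Dnd1, Cdc25c, Reep2 and Cystm1. Gypc encodes glycophorin C, which ties the cell membrane to the spectrin skeleton of red cells (chromosome 18, bases 32528322 to 32560034). It was at 47.8, 45.4 and 43.7 CPM in Tmem173-/- cGAMP libraries and 39.7, 42.3 and 42.7 CPM in Tmem173-/- controls, against 192, 185 and 196 CPM in wild type cGAMP libraries and 45.7, 41.5 and 48.6 CPM in wild type controls. Wild type cGAMP libraries stood about alike and far above all others, with a log2 difference of -2.07 ± 0.08 between Tmem173-/- and wild type under cGAMP (edgeR adjusted p = 3.42e-11).

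Cxxc5, a zinc finger protein that binds unmethylated CpG DNA, is the tested member that starts next but one above Tmem173, 0.096 Mb away (bases 35829818 to 35861687). It was at 99.5, 108 and 102 CPM in Tmem173-/- cGAMP and 106, 108 and 110 CPM in Tmem173-/- control, against 33.0, 33.0 and 34.3 CPM in wild type cGAMP and 97.3, 106 and 102 CPM in wild type control. The 3 wild type cGAMP libraries were low and the other 9 overlapped, giving 1.62 ± 0.07 for Tmem173-/- over wild type under cGAMP (edgeR adjusted p = 1.85e-10). The antisense gene Gm29417 shares 705 bases with Cxxc5 and had 394 counts in all, against 29852 for Cxxc5.

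Dnd1, an RNA-binding protein of germ cells, had 0.595, 0.965 and 0.747 CPM in Tmem173-/- cGAMP, against 2.62, 2.10 and 2.35 CPM in wild type cGAMP libraries (-1.61 ± 0.30, edgeR adjusted p = 3.73e-04). Dnd1 overlaps the more abundant Wdr55 by 38 bases on the opposite strand, and Wdr55 moved the same way (-0.90 ± 0.12, edgeR adjusted p = 1.67e-05). Reep2, which shapes the endoplasmic reticulum, was higher in Tmem173-/- cells under cGAMP by 1.32 ± 0.28 (edgeR adjusted p = 8.18e-04). Cdc25c, a phosphatase of mitotic entry, was lower by a log2 fold change of -1.37 ± 0.46 (edgeR adjusted p = 0.0209), and Cystm1 by -1.20 ± 0.45 (edgeR adjusted p = 0.0359). The Cdc25c call was lost without Tmem173-/- cGAMP replicate 3 (-1.07, adjusted p = 0.0881) and without wild type cGAMP replicate 1 or 3 (-1.24 and -1.21, adjusted p = 0.0645 and 0.0744). That of Cystm1 was lost without any of the 3 Tmem173-/- cGAMP libraries (adjusted p = 0.0741, 0.0529 and 0.122 for replicates 1, 2 and 3) or wild type cGAMP replicate 1 or 3 (0.144 and 0.0505). With both wild type replicate 1 libraries left out, Cdc25c and Cystm1 had edgeR adjusted p-values of 0.0622 and 0.106.

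In wild type cells, cGAMP raised 13 tested members and lowered 16, or 38.7% of 75. Of all tested genes 47.8% were called in this comparison (22.4% higher and 25.4% lower), of protein-coding genes 52.7%, and of the rest of chromosome 18 51.8%. The comparison shares its 3 cGAMP libraries with the comparison of genotypes under cGAMP. By distance from Tmem173 the shares were 36.0% within 1 Mb, 42.9% between 1 and 3 Mb and 33.3% beyond. Without both wild type replicate 1 libraries 26 members were called, and the calls of Pfdn1, Dnajc18, Cdc23 and Srp19 were lost (edgeR adjusted p = 0.074, 0.080, 0.069 and 0.0643). An alternative without wild type control replicate 3 and both wild type replicate 1 libraries, added after the data were seen, leaves a single wild type control. Its calls are not listed here. The log2 fold change in that fit was -0.17 for Pfdn1, -0.21 for Dnajc18, 0.31 for Cdc23 and 0.41 for Srp19. Beside these changes, the dendritic cell markers summed to 36.2 to 43.4 CPM in wild type cGAMP libraries, against 14 to 18.1 CPM in wild type controls, with 2 of 3 tested markers higher. The markers that rose were Zbtb46 and Flt3. Xcr1 went the other way at low counts, with 10, 6 and 5 counts with cGAMP against 19, 10 and 10 counts in wild type controls. Siglech and Clec9a, defining markers of dendritic cell types, had at most 5 counts in any library. Monocyte and macrophage markers summed to 6.41 to 13.8 CPM in wild type cGAMP libraries, against 30.8 to 42.5 CPM in wild type controls, with 2 of 4 tested markers lower. Most of this fall was Adgre1, with 117, 153 and 104 counts with cGAMP against 648, 1080 and 889 counts in wild type controls. Lyz2 went the other way, with 216, 219 and 55 counts with cGAMP against 177, 79 and 17 counts in wild type controls. The part of these markers' cell types in the changes of members was not tested.

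The role lists that follow are small and serve as a description. Beside each stands the share called in this comparison, 47.8% of all tested genes and 52.7% of protein-coding genes. Among members that act in RNA processing and translation, 4 of 9 tested rose with cGAMP in wild type cells and 1 fell. Etf1 rose, with 434, 399 and 434 CPM in wild type cGAMP libraries, against 297, 233 and 312 CPM in wild type controls (log2 fold change 0.59 ± 0.12, edgeR adjusted p = 9.48e-04). Wdr55 rose to 91.8, 87.7 and 94.6 CPM, against 62.0, 49.1 and 70.2 CPM in wild type controls (0.60 ± 0.12, edgeR adjusted p = 7.90e-04). Dnd1 rose by 1.16 ± 0.30 and Srp19 by 0.32 ± 0.10, and the Srp19 call was lost without wild type cGAMP replicate 2 or wild type control replicate 1 (adjusted p = 0.0578 and 0.0531). Paip2 fell, with 121, 155 and 133 CPM with cGAMP, against 226, 265 and 313 CPM in wild type controls (-0.98 ± 0.12, edgeR adjusted p = 7.25e-06). Matr3, at 340, 346 and 358 CPM with cGAMP against 318, 306 and 362 CPM without, did not pass (0.08 ± 0.08).

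Membrane traffic held 7 tested members, of which 4 fell and 0 rose with cGAMP in wild type cells. Bin1, an amphiphysin that bends membranes (bases 32377217 to 32435736), was at 112, 114 and 133 CPM in wild type cGAMP libraries, against 244, 269 and 265 CPM in wild type controls (-1.12 ± 0.09, edgeR adjusted p = 4.66e-08). Reep5, which shapes endoplasmic reticulum tubules, was at 80.6, 78.4 and 84.0 CPM, against 155, 144 and 174 CPM in wild type controls (-0.96 ± 0.09, edgeR adjusted p = 4.94e-07). Both sets of libraries were clearly apart. Its relative Reep2, a gene of low level, fell too, with 1.31, 1.20 and 0.996 CPM with cGAMP against 3.20, 2.78 and 2.19 CPM without (-1.22 ± 0.28, edgeR adjusted p = 0.00177). Pik3c3, the class III phosphatidylinositol 3-kinase of endosomes and autophagy, fell too (-0.28 ± 0.08, edgeR adjusted p = 0.00667).

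Of 6 tested members of the cytoskeleton and adhesion, 1 rose and 2 fell. Gypc rose 4.22-fold (2.08 ± 0.08, edgeR adjusted p = 4.78e-11), the largest fitted change of any called member in wild type cells. Arhgap26, a GTPase-activating protein, fell to 39.1, 39.5 and 40.0 CPM with cGAMP, against 73.1, 71.5 and 66.4 CPM in wild type controls (-0.83 ± 0.08, edgeR adjusted p = 7.91e-07). Antisense gene Gm15337 within Arhgap26 had 257 counts in all, against 22176 for Arhgap26. Diaph1, a formin that nucleates actin filaments, also fell (-0.55 ± 0.09). Apc, a scaffold of beta-catenin degradation, did not pass, with 80.1, 69.3 and 73.5 CPM under cGAMP against 77.6, 81.4 and 61.5 CPM in controls.

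Transcription and chromatin had 13 tested members, of which 3 rose and 2 fell with cGAMP in wild type cells. Those that rose were Taf7, a TFIID subunit (0.50 ± 0.12), Brd8, of the TIP60 acetyltransferase complex (0.41 ± 0.10), and the elongation factor Iws1 (0.28 ± 0.07). Cxxc5 fell to 0.328 of its control level (-1.61 ± 0.07, edgeR adjusted p = 2.24e-10). Nr3c1, the glucocorticoid receptor, was at 120, 120 and 127 CPM with cGAMP, against 165, 183 and 182 CPM in wild type controls (-0.53 ± 0.08, edgeR adjusted p = 5.41e-05). Among the others, Hdac3, a histone deacetylase, had 87.6, 87.9 and 89.1 CPM with cGAMP against 89.8, 81.1 and 91.8 CPM without.

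The 4 ubiquitin and cell cycle members were all called, beside 52.7% of protein-coding genes. A list of 4 genes is too small to set against that share. Cdc23, a subunit of the anaphase-promoting complex, rose by 0.28 ± 0.08. Cdc25c rose by 1.80 ± 0.47 at a low level, with 1.82, 0.998 and 1.89 CPM with cGAMP against 0.676, 0.422 and 0.247 CPM in wild type controls. Ndfip1 fell (-0.63 ± 0.11), and the ubiquitin-conjugating enzyme Ube2d2a, which starts 0.038 Mb above Tmem173, fell as well (-0.39 ± 0.09).

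Metabolism and transport had 4 tested members, of which Gnpda1, a glucosamine-6-phosphate deaminase, fell (-0.82 ± 0.09) and Stard4, a cholesterol transfer protein, fell (-0.54 ± 0.10). Of 7 members of mitochondria and protein folding, Hspa9 rose (0.55 ± 0.15, edgeR adjusted p = 0.00626), and Dnajc18 (-0.31 ± 0.10) and the prefoldin subunit Pfdn1 (-0.37 ± 0.14) fell. The Dnajc18 call was lost with scaling by library totals alone (-0.24, edgeR adjusted p = 0.0573), with no filter (0.0503) and in limma-trend on FPKM (-0.19, adjusted p = 0.135). Pfdn1 passed at an adjusted p of 0.0485, and with wild type control replicate 3 left out its change was -0.19 (edgeR adjusted p = 0.273). Its call was also lost without Tmem173-/- cGAMP replicate 1 or 2, Tmem173-/- control replicate 2, or any of the 3 wild type cGAMP libraries. Of 15 members with other or unassigned roles, Wdr36 (0.48 ± 0.10) and Cystm1 (1.64 ± 0.46) rose and Tmco6 (-0.37 ± 0.09) fell. None of the 4 tested members of signalling and surface proteins passed the test. Cd14, the co-receptor for bacterial lipopolysaccharide, had 86 counts over all libraries and a change of 1.88 ± 0.96 (edgeR adjusted p = 0.122).

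**Figure D3:**
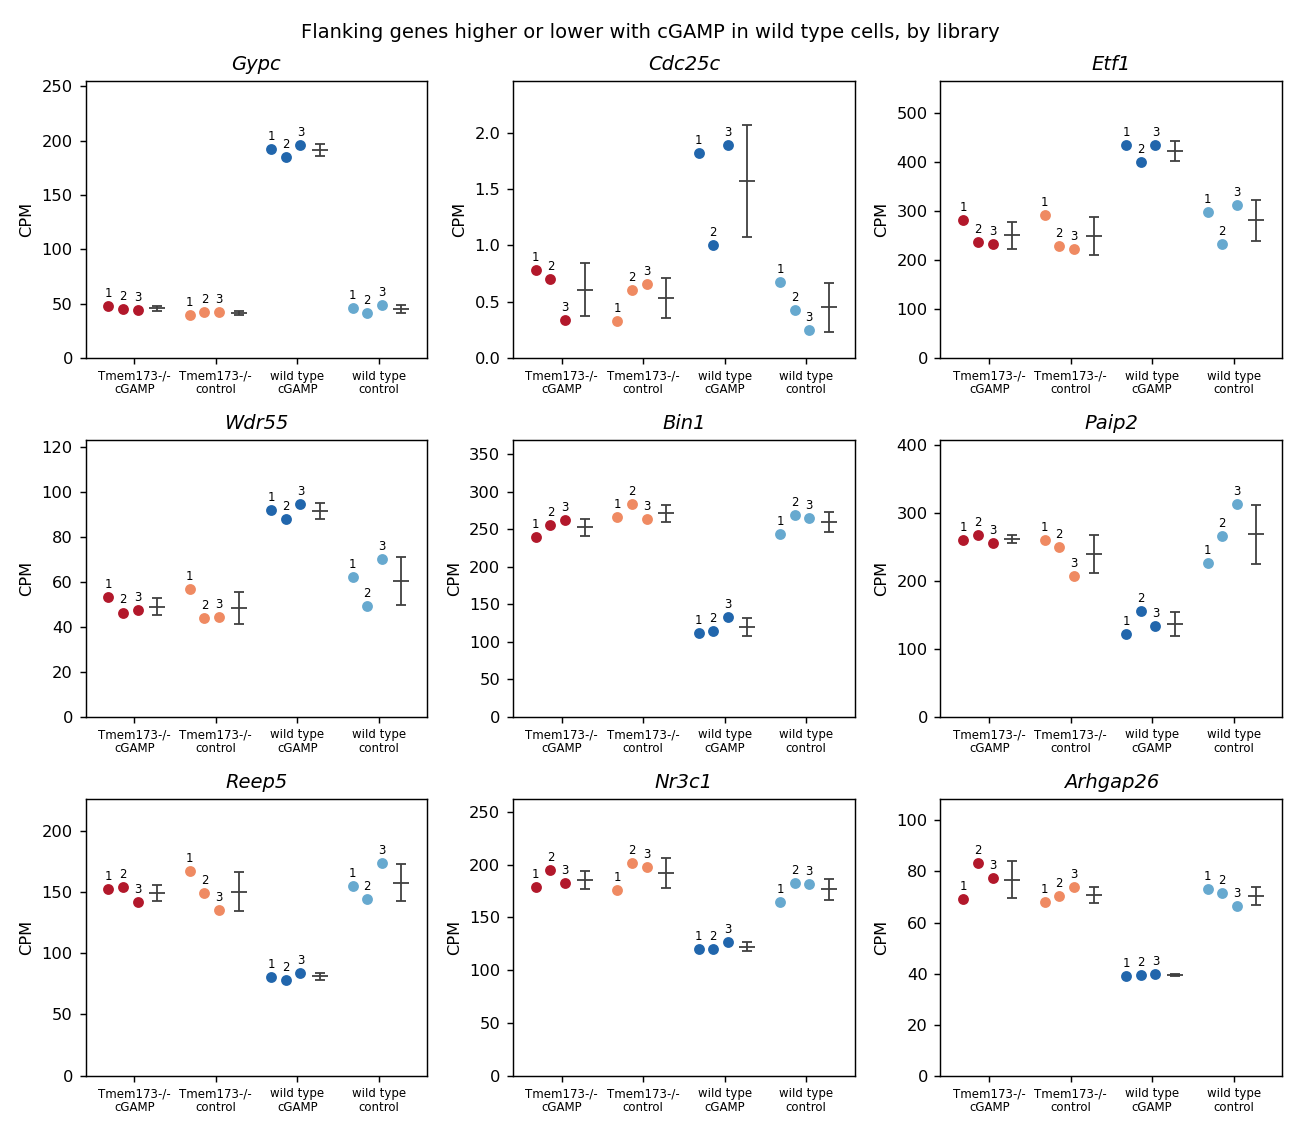
CPM of 9 members called with cGAMP in wild type cells, in each library (points, numbered by replicate), with the mean and SD of each group of 3 beside them. Gypc, Cdc25c, Etf1 and Wdr55 were higher, and Bin1, Paip2, Reep5, Nr3c1 and Arhgap26 lower, in wild type cGAMP libraries than in wild type controls.

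In Tmem173-/- cells cGAMP changed no tested member at an adjusted p of 0.05, and the share over all tested genes was also 0.0% (edgeR; DESeq2 and limma-voom also called 0 members). At an unadjusted p under 0.05 there was 1 member, B930094E09Rik, beside 1.4% of all tested genes and 1.15% of protein-coding genes. It had 0.409, 0.333 and 0.543 CPM in Tmem173-/- cGAMP libraries, against 0.0980, 0.0671 and 0.0729 CPM in Tmem173-/- controls (2.37 ± 0.62, edgeR adjusted p = 1.0). For 59 of the 75 members the 95% limma-voom interval of the response lay within 2-fold, and for 53 within 1.5-fold. The 29 members called in wild type cells had responses between -0.38 and 0.64 in Tmem173-/- cells, with a median size of 0.05, against a median size of 0.55 in wild type cells. That wild type size is inflated by selection, since the same responses chose the genes.

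Tested directly, the response of Tmem173-/- cells differed from that of wild type cells for 21 members, 12 with a positive difference and 9 with a negative difference, or 28% of 75. The share of all tested genes was 31.6% (17.5% positive and 14.1% negative), of protein-coding genes 36.0% and of the rest of chromosome 18 34.6%. This difference shares all its libraries with the comparisons above. The 5 of largest size were Gypc (-1.94 ± 0.11, edgeR adjusted p = 1.29e-08), Dnd1 (-1.55 ± 0.43, edgeR adjusted p = 0.0123), Cxxc5 (1.54 ± 0.10, edgeR adjusted p = 5.43e-08), Paip2 (1.10 ± 0.17, edgeR adjusted p = 1.65e-04) and Bin1 (1.02 ± 0.12, edgeR adjusted p = 1.37e-05). Without both wild type replicate 1 libraries 17 members were called, and Dnd1 was among those lost (-1.42, edgeR adjusted p = 0.0573). Paip2 was at 260, 267 and 255 CPM in Tmem173-/- cGAMP libraries, against 260, 249 and 207 CPM in Tmem173-/- controls. Bin1 was at 240, 256 and 262 CPM in Tmem173-/- cGAMP libraries, against 266, 284 and 263 CPM in Tmem173-/- controls. Tmem173 itself had a difference of 1.02 ± 0.14 (edgeR adjusted p = 6.43e-05), its RNA falling by 1.01 on the log2 scale in wild type cells and changing by 0.01 ± 0.10 in Tmem173-/- cells, which did not pass.

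**Figure D4:**
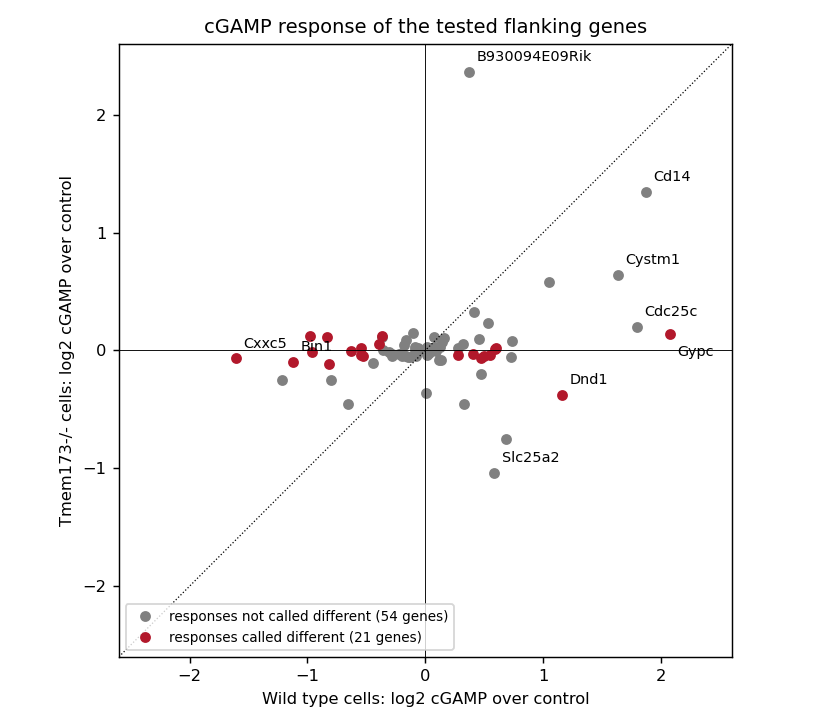
Log2 response to cGAMP of the 75 tested members in Tmem173-/- cells (vertical axis) and in wild type cells (horizontal axis), each over its own control, with the line of equal responses dotted. The 21 members whose responses were called different lie off that line, and the labelled grey genes did not pass.

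The tested members nearest to Tmem173 give the local picture. On its lower side these were 1700066B19Rik, Dnajc18, Spata24, Prob1 and Slc23a1, and on its upper side Ube2d2a, Cxxc5, Pura, Igip and Cystm1. Spata24 was at 12.8, 12.8 and 10.9 CPM in Tmem173-/- controls, against 12.9, 14.1 and 15.2 CPM in wild type controls, which did not overlap (-0.21 ± 0.13, edgeR adjusted p = 0.737). Igip, named for induction of IgA, was at 4.15, 4.30 and 4.45 CPM in Tmem173-/- controls, against 3.45, 3.38 and 3.32 CPM in wild type controls, again without overlap (0.35 ± 0.20, edgeR adjusted p = 0.728). Under cGAMP, Igip was at 3.91, 4.89 and 4.52 CPM in Tmem173-/- cells, against 3.78, 3.03 and 2.14 CPM in wild type cells (0.57 ± 0.21, edgeR adjusted p = 0.0298). That call was lost without Tmem173-/- cGAMP replicate 2 or 3 (adjusted p = 0.110 and 0.0659) or wild type cGAMP replicate 2 or 3 (0.0562 and 0.134). For Igip too, control and cGAMP libraries may share mice. Dnajc18 was at 21.2, 24.5 and 23.0 CPM in Tmem173-/- cGAMP and 21.3, 24.4 and 23.7 CPM in Tmem173-/- control, against 17.5, 17.2 and 18.1 CPM in wild type cGAMP and 22.2, 20.5 and 22.9 CPM in wild type control. Pura, a protein that binds purine-rich DNA and RNA, passed in no comparison, with 42.4 to 50 CPM in Tmem173-/- libraries and 39.9 to 47.4 CPM in wild type libraries. Prob1, Slc23a1, an ascorbate transporter, and 1700066B19Rik had 1336, 476 and 223 counts over all libraries and passed in no comparison.

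Protocadherins made up 59 of the 160 members. These are cadherin-like surface proteins, known mainly from neurons, whose alpha, beta and gamma genes stand in 3 clusters. Of 14 genes in the alpha cluster, 13 had no count in any library and the cluster had 1 count in all. The 22 beta genes held 74 counts in Tmem173-/- cGAMP, 101 in Tmem173-/- control, 54 in wild type cGAMP and 54 in wild type control libraries. The 21 gamma genes held 398, 490, 291 and 405 counts in the same order of groups. Counts were low in every library, and 6 protocadherins were tested, of which 0 passed in any of the 5 comparisons. Genes of a cluster resemble each other in sequence, and in the alpha and gamma clusters share 3' exons, so counts of single genes are uncertain. Pcdhb22 was at 1.18, 0.671 and 0.875 CPM in Tmem173-/- controls, against 0.178, 0.352 and 0.494 CPM in wild type controls. With cGAMP it was at 0.856, 0.765 and 0.373 CPM in Tmem173-/- cells, against 0.909, 0.172 and 0.214 CPM in wild type cells, where the groups overlapped. Leaving out wild type cGAMP replicate 1 gave a call for Pcdhb22 under cGAMP (1.76, edgeR adjusted p = 0.0326).

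Of the 85 untested members, 33 had no count in any library and 52 had at most 86 counts over all 12. They were 53 protocadherins, 12 genes of signalling and surface proteins, 3 of the cytoskeleton and adhesion, 14 with other roles and 1 each of RNA processing, membrane traffic and metabolism. A difference between genotypes in these genes was not detectable at this depth.

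**Figure D5:**
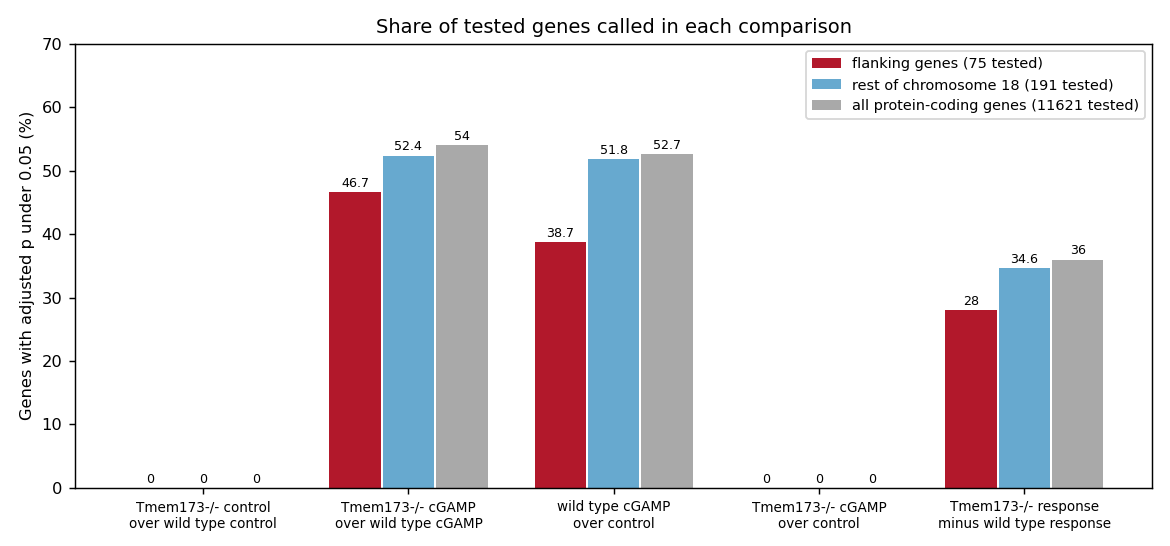
Percent of tested genes with an edgeR adjusted p under 0.05 in each of the 5 comparisons, for the 75 tested members, 191 genes on the rest of chromosome 18 and 11621 protein-coding genes. Flanking genes were called at 46.7%, 38.7% and 28% in the comparisons that hold wild type cGAMP libraries, and at 0% in the other 2.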

How the data were processed

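The tools named in the submitters' processing notes are fastp, STAR and featureCounts, and the builds are GRCm38 and mm10. Versions, settings and strandedness are not given in the sources used here. The authors deposited raw counts per gene and FPKM values (scaled to gene length and to the assigned reads of each library).

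The deposited counts of all 12 libraries were fitted together in R 4.3.3 with edgeR 4.0.16 (filterByExpr by group with its count minimum of 10, TMM, robust quasi-likelihood F tests, two-sided, 1 mean per group). P-values were adjusted by Benjamini-Hochberg over 14473 genes in each of 5 contrasts, with a threshold of 0.05. SE is the size of a log2 fold change over the square root of F. Intervals at 95% come from limma-voom (limma 3.58.1), and DESeq2 1.42.0 was an alternative. Deposited FPKM were used for levels between genes and, as log2(FPKM + 1), in a limma-trend alternative. The steps were tested on simulated counts. Members, role lists (assigned by hand), tests and the naming rule were chosen with earlier results of these data known. Named by that rule were Tmem173, the members with the largest called changes in each contrast, the 5 nearest to Tmem173 on each side and the 5 of highest FPKM. Every member called in wild type cells with cGAMP is also named with its role list, and Ctnna1 with its neighbours, Apc, Hdac3, Cd14 and the members of low unadjusted p were chosen after their values were seen. Some listed markers are not reported here.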

Additional observations from a re-analysis of the deposited data

Results flagged for a closer look

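The response to cGAMP of Tmem173-/- minus that of wild type cells, tested as an interaction in edgeR, passed the threshold for 21 members and for Tmem173. On the log2 scale the difference was positive for Cxxc5 (1.54), Paip2 (1.10), Bin1 (1.02), Arhgap26 (0.95), Reep5 (0.95), Gnpda1 (0.70), Ndfip1 (0.63), Stard4 (0.56), Diaph1 (0.51), Tmco6 (0.49), Nr3c1 (0.48) and Ube2d2a (0.45). It was negative for Gypc (-1.94), Dnd1 (-1.54), Etf1 (-0.58), Hspa9 (-0.58), Wdr55 (-0.58), Taf7 (-0.55), Wdr36 (-0.54), Brd8 (-0.44) and Cdc23 (-0.32). Tmem173 differed by 1.02. These values share libraries with the comparisons of the report and repeat part of them. Some of these calls were lost when a single library was left out, with edgeR adjusted p-values as follows. For Hspa9 the p was 0.0936 to 0.104 without Tmem173-/- cGAMP replicate 2 or 3, Tmem173-/- control replicate 1, wild type cGAMP replicate 1 or 3, or wild type control replicate 2. Etf1 had 0.0507 and 0.0547 without Tmem173-/- cGAMP replicates 2 and 3. Taf7 had 0.0502 to 0.0661 without Tmem173-/- cGAMP replicate 1, Tmem173-/- control replicate 2, wild type cGAMP replicate 2 or 3, or wild type control replicate 1 or 2. Brd8 had 0.0527 to 0.0775 without Tmem173-/- cGAMP replicate 1 or 2, Tmem173-/- control replicate 2 or 3, wild type cGAMP replicate 2 or 3, or wild type control replicate 3. Cdc23 had 0.0518 to 0.097 without any library other than Tmem173-/- control replicate 1, wild type cGAMP replicate 2 or wild type control replicate 3. Without both wild type replicate 1 libraries, Dnd1 (-1.42, adjusted p = 0.0573), Wdr55 (-0.59, 0.0528), Hspa9 (-0.59, 0.0879) and Cdc23 (-0.29, 0.123) were lost.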

How the results depend on the processing

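The number of members called stayed within 1.5 times the reported number under every alternative run, with the exception of untreated Tmem173-/- against wild type cells without a filter on low counts. That fit called 1 member (Ctnna1, adjusted p = 6.79e-36) and 151 genes in all; the cause was not tested. Leaving out each library in turn gave 26 to 35 calls for Tmem173-/- against wild type under cGAMP, 27 to 31 for wild type cGAMP against control, 17 to 22 for the difference of responses, and 0 in each other comparison. Without both wild type replicate 1 libraries the 3 numbers were 31, 26 and 17. A fit without wild type control replicate 3 as well, added after the data were seen, leaves a single wild type control, and its numbers are not listed. Same-numbered libraries did not correlate above 0.1 in every pair, but pairs across genotypes cannot share a mouse. Within a genotype each library correlated best with its own number. For replicates 1, 2 and 3 the correlation was 0.288, 0.0958 and 0.17 in Tmem173-/- cells and 0.3, 0.218 and 0.0834 in wild type cells. Under cGAMP, Tmem173-/- and wild type libraries also correlated best with their own number (0.113, 0.093 and 0.0547). In the other pairs of groups across genotypes, replicate 3 correlated negatively with its own number (-0.0943, -0.0105 and -0.16). Correlation by number therefore does not by itself show a shared mouse. Whether libraries of a number within a genotype come from the same mouse is not stated in the labels and was not tested. The main fit did not pair them. With a replicate block the numbers were 34, 29 and 21, and with the block within genotype wild type cGAMP against control gave 35 and the difference 26. The share of all tested genes is not given for the block fits, so these changes cannot be read as particular to members. The block within genotype also called Ctnna1 in the wild type response (-0.38, adjusted p = 0.00106) and in the difference of responses (0.41, 0.0134). Over 8495 values of single members and of Tmem173 under an alternative, 0 calls reversed, 135 were lost and 60 were gained. Of these values, 1667 and 1743 belong to the 2 comparisons without a call in the main fit, where none could be lost. Estimates that were not called could change sign. The difference of responses of Ctnna1 was 0.36 in the main fit and -1.08 without Tmem173-/- cGAMP replicate 1. Depth limits the 85 untested members.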
